A study of Mus musculus with 2 samples.

Results

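Bright transcript clusters without a gene symbol are array features with signal above a negative control limit although the platform's annotation pairs them with no named gene. They were taken as the rows whose identifier starts with TC or TS, that have no symbol, and whose log2 signal exceeded the 95th percentile of the negative control rows of the same array on at least 1 array. That limit was 5.06 for circPan3+/+ and 5.56 for circPan3-/-. By this definition the brightest negative control rows pass as well, so passing does not show that a cluster is expressed. The share of those rows that pass on at least 1 array was not counted. The rule gave 2266 clusters, 6.82% of the 33206 clusters without a symbol, out of 65956 transcript clusters in all. Of the 32750 clusters with a symbol, 6768 passed the same limits, or 20.7%. The clusters were thus chosen by their measured signal on these arrays, so that brightness, and any count that the limits fix, is given only as a description.

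The cells were intestinal stem cells sorted by green fluorescent protein from the small intestine of 8-week-old mice that carried the Lgr5GFP-CreERT2 allele, in which the fluorescent protein and an inducible Cre recombinase are made where the stem cell receptor gene Lgr5 is expressed. Both genotypes carried that allele. The groups were circPan3+/+ and circPan3-/-, which differ in the circular RNA circPan3 that comes from the Pan3 gene. How circPan3 was removed was not given in the labels. Total RNA of each genotype was hybridised to 1 Affymetrix Clariom D mouse array and whether mice were pooled was not stated there. A single array stands for each genotype, which leaves neither a replicate error nor a test, so each difference below compares these 2 arrays. Differences are circPan3-/- minus circPan3+/+ on the log2 scale, and "higher" or "lower" describes the arrays by a size rule of 2-fold, not a tested change.

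Arrays of this kind carry probes for coding genes, for annotated noncoding RNAs and for predicted transcripts from unannotated stretches of the genome. A cluster without a symbol can lie within, beside or opposite a known gene, in a repeated sequence with many copies, or far from any gene. Probes that match several places report the summed signal of all their copies, so the chromosome in an identifier is where the cluster was annotated and not always where the RNA arose. The identifiers give the chromosome and a serial number; no coordinates or probe sequences of these clusters were used here.

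The 2 arrays differed in marker genes as follows. Of 8 stem cell markers, 3 were above the limit in circPan3+/+ and 4 in circPan3-/- cells. Their median difference was 0.77, with 3 higher by 2-fold or more and 2 lower. Lgr5 had signals of 10.91 and 7.02 and Olfm4 11.53 and 10.28, in that order of arrays. Smoc2 (3.49 and 5.43), Axin2 (4.25 and 5.97) and Sox9 (5.07 and 6.45) were higher, Smoc2 with both values under the limits, and Ascl2 also lay under both. Paneth and goblet cell markers had median differences of 2.51 and 2.09, and enteroendocrine markers 1.74, and all 4 measured in each of these lists were at least 2-fold higher. For enterocyte markers the median was -1.33 and 4 of 5 were lower by 2-fold or more. The myeloid median was -1.90, with 4 of 6 past 2-fold downward. The other medians were -1.71 for endothelial, -1.05 for mesenchymal, -0.40 for T cell, and -0.05 for B and plasma cell markers. Of the 6 myeloid markers 6 were above the limit in circPan3+/+ and 1 in circPan3-/- cells, and of the 3 endothelial markers 3 and 0. The part of these cell types in the results below was not tested, and in bulk RNA fewer cells of a type cannot be told apart from less RNA per cell. Pan3 had 4.84 and 5.64, a gene-level value that does not separate circular from linear RNA, so it does not check the genotype.

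Over all 2266 clusters the median signal was 6.40 for circPan3+/+ and 6.52 for circPan3-/-. The median difference was 0.17, with quartiles of -0.32 and 0.46, against 0.18 for all transcript clusters and 0.37 for bright clusters with a symbol. Of the clusters without a symbol, 201 were higher by 2-fold or more and 201 lower, 8.87% in each direction. Among all 9034 bright clusters, named or not, 12.3% were higher by that rule and 8.26% lower, so the share of higher clusters was below that background and the share of lower ones near it. The 5222 negative control rows had a median difference of 0.27, and 22.1% of them were higher by 2-fold or more and 8.08% lower. Those rows are dim, with median signals of 1.98 and 2.29. Probes without a target thus pass the 2-fold rule often at low signal. Among the scalings tried, only the values as deposited gave equal numbers in both directions. After centring on the median of all clusters, which moves values by 0.18, 135 were higher and 263 lower. After loess on signal level the counts were 114 and 362, and after quantile normalization 124 and 304. Bright clusters with a symbol moved the same way with the scaling, from 906 higher and 545 lower as deposited to 586 and 671 after centring, 380 and 864 after loess and 460 and 746 after quantile normalization. Among unnamed clusters the higher ones made up 50% of those past 2-fold as deposited, 33.9% after centring, 23.9% after loess and 29.0% after quantile normalization.

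**Figure D1:**
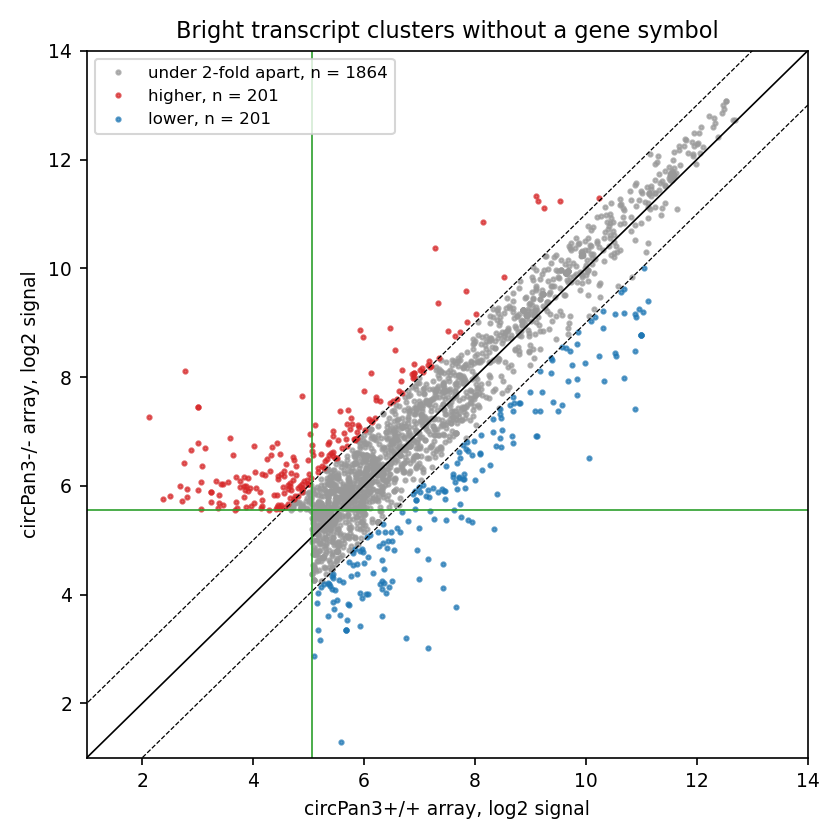
Log2 signal of the 2266 bright clusters without a gene symbol on the circPan3+/+ array (x axis) and the circPan3-/- array (y axis), 1 point per cluster. The solid line marks equal signal, dashed lines a 2-fold difference, and green lines the limits of 5.06 and 5.56; the 201 higher clusters lie mostly at low circPan3+/+ signal, and lower clusters extend to signals above 10.

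The limits shape these counts. Above both limits stood 1712 clusters, or 75.6%; 406 passed on the circPan3+/+ array alone and 148 on the circPan3-/- array alone. The 148 had to be higher, with a median of 1.48, and the 406 had a median of -0.61, so neither set supports a direction. Among the 1712, the median difference was 0.22, 89 were higher by 2-fold or more (5.20%) and 112 lower (6.54%). Over all 6664 clusters above both limits those shares were 9.23% and 5.13%. Where a value under its limit was raised to that limit, so that the fold became a lower bound, 136 unnamed clusters stayed past 2-fold upward and 132 downward, 6.002% and 5.83%, beside 9% and 5.15% of all bright clusters. At the edge of the rule, TC0X00002191.mm.1 with signals of 5.06 and 5.53 and TC1500000948.mm.1 with 4.68 and 5.56 were just inside. TC0200004845.mm.1 with 5.06 and 4.89 and TC1200001508.mm.1 with 4.53 and 5.56 were just outside.

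The balance of directions varied with signal level. Between mean levels of 6 and 8, 61 of 814 unnamed clusters above both limits were past 2-fold upward and 57 downward, or 7.49% and 7.002%, against 13.9% and 3.99% of the clusters with a symbol. Between 8 and 10, 10 of 354 were higher and 47 lower, or 2.82% and 13.3%, while clusters with a symbol in that range were higher in 12.6% and lower in 6.68%. Above 10 the order turned: 3.60% of 222 unnamed clusters were at least 2-fold lower, against 19.7% of 401 clusters with a symbol. The unnamed clusters above 10 also had the narrowest quartiles of the 4 level ranges, at 0.12 and 0.42.

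The 10 brightest clusters differed by at most 0.57. TC0400001746.mm.1 and TC0900002348.mm.1, coded to chromosomes 4 and 9, held the same values, 12.53 in circPan3+/+ and 13.07 in circPan3-/- cells. TC1300001428.mm.1 followed with 12.48 and 13.01. TC1200001864.mm.1 had 12.69 and 12.74, and TC1200000561.mm.1, also on chromosome 12, had 12.66 and 12.73. By the order of serial numbers described further on, the interval of the first holds Rn7s2 and that of the second Rn7s1, which encode 7SL, the RNA of the signal recognition particle. TSUnmapped00000096.mm.1, which has no chromosome, had 12.23 and 12.80, a difference of 0.57. TC1600000133.mm.1 had 12.50 and 12.93, TC0500001782.mm.1 12.46 and 12.85, TC0200002613.mm.1 12.31 and 12.77, and TC1500000834.mm.1 12.33 and 12.67. The highest value of the whole table was 13.07, so that the unnamed clusters reach its top.

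Some of the unnamed bright clusters held repeated values. Of the 2266 clusters, 389 (17.2%) shared both of their values, equal as deposited, with at least 1 other of them, against 3.96% of bright clusters with a symbol. The 389 held 65 distinct pairs of values, and 44 of these pairs occurred on more than 1 chromosome code. The most frequent pair, 5.66 and 5.92 with a difference of 0.27, stood in 63 clusters on 17 chromosomes and 1 unplaced contig. The next stood in 30 clusters on 14 chromosome codes, with 6.05 and 6.04, and a brighter one, 9.94 and 10.24, in 26 clusters on 12. In all, 10 pairs were held by at least 10 clusters each, 229 clusters together, and their differences ran from -0.92 to 0.31. The 2266 identifiers held 1942 distinct pairs of values.

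**Figure D2:**
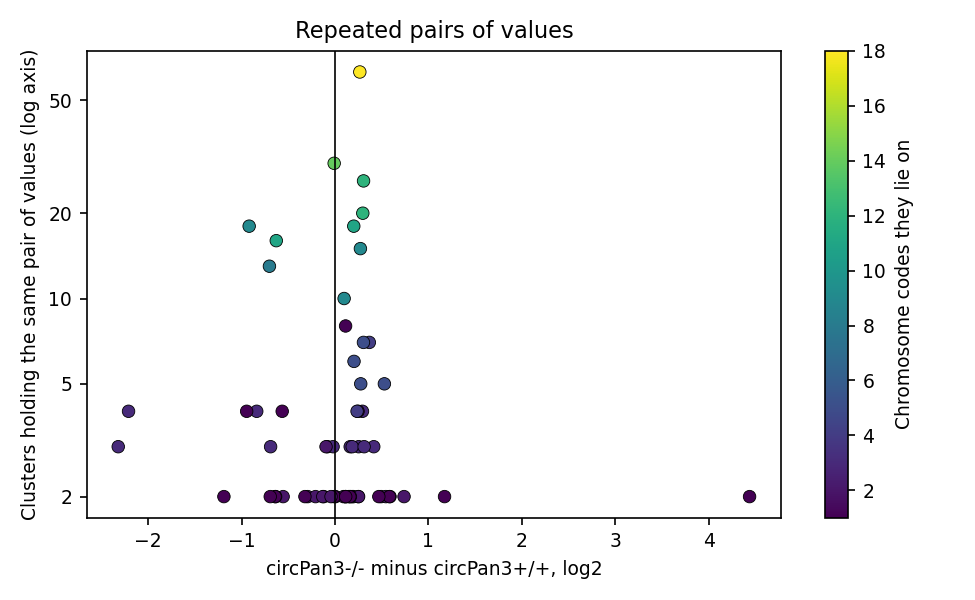
Each point is a pair of values held by at least 2 unnamed bright clusters: its difference (x axis, log2) against the number of clusters that hold it (log y axis), coloured by the number of chromosome codes. Pairs held by 10 or more clusters lie between -0.92 and 0.31, and the pair at 4.44, whose circPan3+/+ value is under the limit, is held by 2 clusters of chromosome 7.

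Most of these repeated signals were close to even between the genotypes, and 5 of the 65 pairs were at least 2-fold apart, 3 lower and 2 higher. TC0100003767.mm.1 shared its values, 10.99 and 8.78, with TC0300001724.mm.1, TC1500001156.mm.1 and TC1500001550.mm.1. That pair was 4.63-fold lower, and it fills 4 places among the 10 lowest clusters above both limits. Whether clusters with equal values share probes was not tested. At the other end, TC0700003994.mm.1 and TC0700004000.mm.1 both held 3.01 and 7.45, of which the first is under its limit, so that the pair was at least 5.23-fold higher. In 6 cases an unnamed cluster shared its pair with clusters that do have a symbol. TC1200000452.mm.1, with 12.05 and 12.13, shared its values with 6 named clusters, among them 1 annotated to Rnu1a1, which encodes the U1 small nuclear RNA of the spliceosome. TC1200000429.mm.1, with 11.08 and 10.30, shared its values with 48 named clusters, each listed by RefSeq as a small nuclear RNA. TC0800003141.mm.1, with 11.12 and 9.39, matched 1 named pseudogene.

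By chromosome code, the 19 autosomes and X each held between 50 and 184 of the unnamed bright clusters. The share of clusters without a symbol that were bright was lowest on chromosome 18, at 4.87% (95% exact interval 3.64 to 6.37, counting error only), and highest on X, at 9.75% (8.23 to 11.4). Chromosomes 4 and 7 followed X with 8.86% (7.68 to 10.2) and 8.53% (7.26 to 9.94). Chromosome 14, next to the lowest, had 4.94% (3.88 to 6.19). These shares describe the selection, and since clusters with repeated values are not independent the intervals are too narrow. The order rested on the limit: with a pass required on both arrays, chromosome 4 was highest, with 7.13%.

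Over the unnamed bright clusters of each chromosome, median differences ran from -0.01 on chromosome 14 to 0.27 on chromosomes 7 and 19, a range of 0.27. X had -0.0078, chromosome 18 -0.00021 and chromosome 10 0.04. These low medians rest on clusters that passed in circPan3+/+ alone, which were 36 of 134 on X, 13 of 50 on chromosome 18, 17 of 71 on chromosome 14 and 40 of 131 on chromosome 10. Above both limits the 20 medians ran from 0.11 on chromosome 10 to 0.28 on chromosome 18, with 0.20 on X and 0.16 on chromosome 14, so the order of chromosomes depends on the limits. The same median of 0.20 recurred on chromosomes 3, 13 and 15, because it is the difference of a repeated pair, 8.94 and 9.14, that stood in 18 clusters. With each distinct pair counted a single time per chromosome the medians ran from -0.07 to 0.26. Clusters past 2-fold were mostly higher on 8 of the 20 chromosomes and lower on 9, with equal numbers on 3.

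On each of the 20 chromosomes the median of the unnamed bright clusters was below that of the bright clusters with a symbol, whose chromosome medians ran from 0.28 to 0.47. Centring shifts every cluster by the same amount, so it leaves this at 20 of 20 and adds no support. After loess or quantile normalization it held for 19 of 20. Among clusters above both limits it also held for 20 of 20, with unnamed medians from 0.11 to 0.28 and named medians from 0.31 to 0.50. There the medians were 0.11 against 0.47 on chromosome 10 and 0.25 against 0.31 on chromosome 3.

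On chromosome 19, 9 of 57 unnamed clusters were past 2-fold upward and 3 downward, or 15.8% and 5.26%, beside 14.3% and 8.52% of the named ones. On chromosome 17 the counts were 15 and 8 of 98, or 15.3% and 8.16%, beside 14.6% and 3.13%. Above both limits the counts became 2 and 2 on chromosome 19 and 10 and 2 on chromosome 17. On chromosome 14, 3 of 71 were past 2-fold upward and 9 downward, or 4.23% and 12.7%, beside 14.9% and 6.14% of the named ones, and above both limits 2 and 5.

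**Figure D3:**
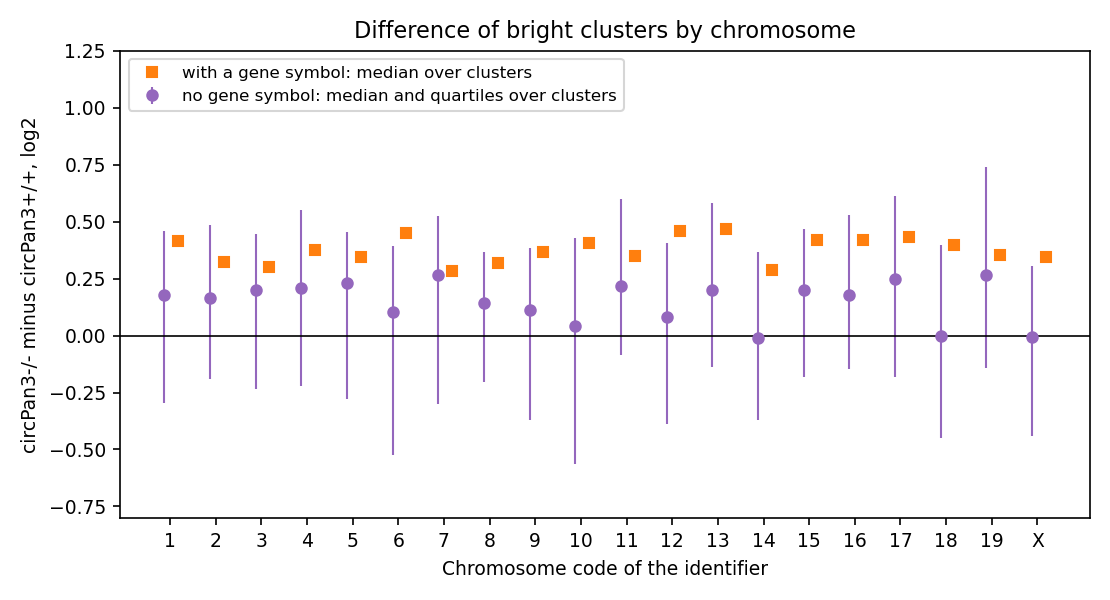
Median difference (y axis, log2) of bright clusters without a gene symbol, with the quartiles over clusters as bars, and of bright clusters with a symbol (squares), by chromosome code (x axis). All 20 unnamed medians lie between -0.01 and 0.27, each below the named median of its chromosome.

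The mitochondrial code had the lowest median difference of all codes. The mitochondrial genome encodes subunits of the respiratory chain, ribosomal RNAs and transfer RNAs, transcribed as long precursors from both strands. Of its 19 clusters without a symbol, 15 were bright, or 78.9% (54.4 to 93.9). Their median level was 8.69 in circPan3+/+ and 6.79 in circPan3-/- cells, and the median difference was -0.79. Of the 15, 13 were below 0, and 6 were at least 2-fold lower with 0 higher. Above both limits 5 were at least 2-fold lower. The 11 mitochondrial clusters with a symbol had a median difference of 0.12, from -0.54 to 0.37, and 8 of them were above 0. Their median levels were 11.20 in circPan3+/+ and 10.66 in circPan3-/- cells, so named and unnamed clusters were compared at unlike signal levels. The unnamed median stayed below 0 under every scaling, with -0.97 after centring, -1.17 after loess and -0.93 after quantile normalization, where 7, 8 and 7 clusters were at least 2-fold lower. The named median was -0.11 after loess.

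Within the mitochondrial code the lowest differences were those of TC0M00000022.mm.1, with 8.69 and 6.79, of TC0M00000014.mm.1, with 7.45 and 5.75, and of TC0M00000028.mm.1, with 10.68 and 9.18. TC0M00000020.mm.1, TC0M00000021.mm.1 and TC0M00000022.mm.1 follow each other by serial number and differed by -1.12, -1.39 and -1.90. Of these, TC0M00000021.mm.1 had 5.47 and 4.08, with the circPan3-/- value under its limit, and the limits allow no bound on its fold. TC0M00000012.mm.1 was the highest, with 5.51 and 6.47, and TC0M00000030.mm.1 had 8.80 and 9.16. Among the named neighbours, mt-Rnr1, a ribosomal RNA, had 12.32 and 12.36, COX1, a subunit of cytochrome oxidase, 10.28 and 10.41, and ND6, a complex I subunit, 10.17 and 10.15. Between mt-Rnr1 and the cluster of mt-Rnr2 and ND1 lay TC0M00000003.mm.1, with 11.04 and 10.01.

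**Figure D4:**
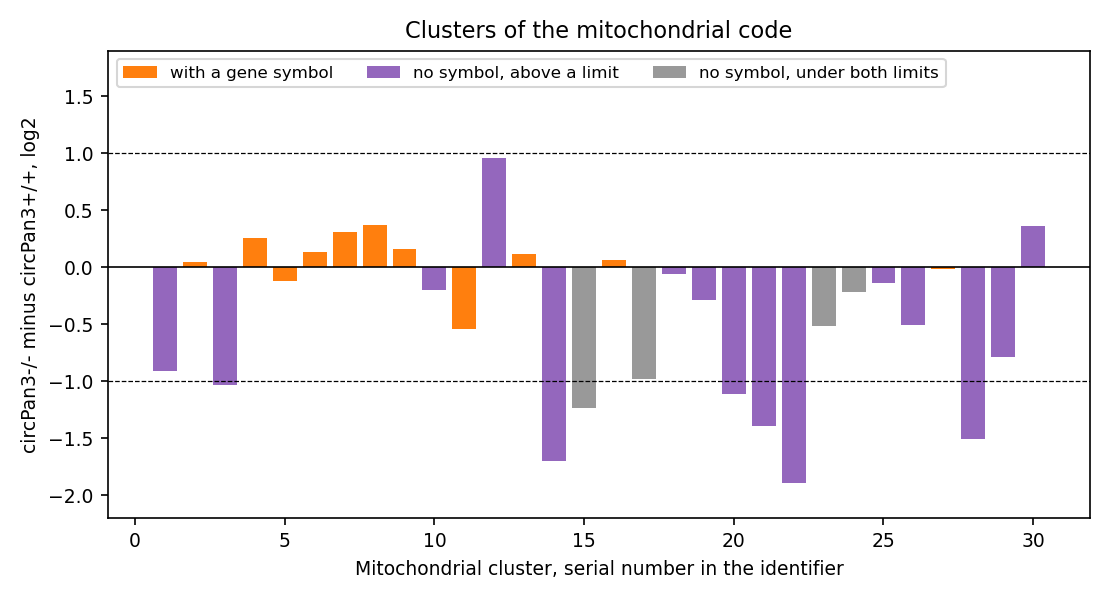
Difference of each of the 30 mitochondrial clusters (y axis, log2) by the serial number in its identifier (x axis); dashed lines mark a 2-fold difference. Clusters with a symbol lie between -0.54 and 0.37, while 13 of the 15 unnamed bright clusters are below 0 and the lowest, at -1.90, is serial number 22.

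The Y code held 11 unnamed bright clusters among 300 without a symbol. It also held 5 bright clusters with a symbol, with a median difference of 0.89 and 40% at least 2-fold higher. Xist, which is expressed from the inactive X chromosome, was above the limit on both arrays, with 6.90 and 8.55, while the Y-linked genes Kdm5d (2.13 and 3.31), Eif2s3y (2.51 and 3.75) and Uty (2.18 and 3.33) were under both limits. Of the 11, 4 held the repeated pair 6.05 and 6.04 that stood on 14 chromosome codes in all, and 2 held the pair 5.10 and 4.26 found also on chromosomes 1 and 16. TC0Y00000230.mm.1 was the brightest on the circPan3+/+ array, with 10.24 and 8.38, a difference of -1.85, and TC0Y00000540.mm.1 had 8.69 and 9.26. Which copy of a sequence these Y-coded clusters report was not tested.

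On unplaced contigs and among unmapped identifiers there were 22 such clusters, of which 5 were past 2-fold upward and 0 downward. The 78 bright named clusters without a chromosome had 5.13% higher and 51.3% lower, with a median difference of -1.10 against 0.31. The 5 unnamed ones were all among the 8 with unmapped identifiers, but 3 of them passed in circPan3-/- alone and so had to be higher. Above both limits 2 were past 2-fold. TSUnmapped00000061.mm.1 had 2.78 and 8.10. Its circPan3+/+ value lay under the limit, so the fold is at least 8.24. TSUnmapped00000034.mm.1 had 2.13 and 7.26, at least 4.61-fold, and TSUnmapped00000057.mm.1, above both limits, had 5.99 and 8.73, or 6.71-fold. The others were TSUnmapped00000028.mm.1 with 3.24 and 5.89, which as a bound is 1.78-fold, and TSUnmapped00000033.mm.1 with 5.07 and 6.64.

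Serial numbers place most clusters between known genes. On the autosomes and X, 97.3% of the 30177 named clusters that match a gene of the same chromosome in RefSeq (GRCm38.p6) followed gene order, in a first run of serial numbers and then a second. On the 19 chromosomes for which promoter strands were at hand, 97.1% to 99.04% of genes in the first run lay on the plus strand or, in the second, on the minus strand. By this order 2185 of the 2266 clusters (96.4%) lay between a pair of named genes. The interval below runs from the preceding to the following gene and includes genes of either strand. An interval says which genes are near and does not name the cluster, and the build of the array was not given in the labels.

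By serial order, the lowest cluster above both limits lay in an interval that holds Lgr5. TC1000001331.mm.1 on chromosome 10 had 10.05 in circPan3+/+ and 6.52 in circPan3-/- cells. The difference was -3.53, or 11.6-fold. It lay between Zfc3h1 and A930009A15Rik in the first run, and the interval held 1 further gene, Lgr5, whose own cluster is in the second run. Lgr5, the R-spondin receptor that marks crypt base stem cells, differed by -3.89. The cluster before it, TC1000001330.mm.1, named after its values were seen, had 7.43 and 4.13, a difference of -3.30 and at least 3.67-fold. Both unnamed clusters were thus lower in the interval of the gene whose reporter was used to sort the cells.

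Of the other lowest clusters above both limits, most had no bright neighbour that was lower by 2-fold. TC0800000135.mm.1 had 10.88 and 7.42, or 11.01-fold lower, between Champ1 and Gm7676, and Coprs, the bright gene of that interval, had 5.12 and 5.45. TC0400001310.mm.1 had 10.69 and 7.99, a difference of -2.70. TC1400001179.mm.1 had 8.40 and 5.86, or 5.84-fold lower, in an interval that ends with Acod1, the itaconate-producing enzyme of activated macrophages, at 5.19 and 2.98. TC1600000603.mm.1 had 10.89 and 8.47, and TC1300001160.mm.1 had 10.33 and 7.93 beside Gm16416, which had 10.21 and 10.66. The remaining 4 hold the repeated pair of 10.99 and 8.78 described above. At 1 of them, TC1500001550.mm.1, the next named cluster was the small nuclear RNA Gm26178, with a difference of -1.68.

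At the high end, 4 of the 10 highest clusters above both limits lay in the alpha-defensin region of chromosome 8. Alpha-defensins are antimicrobial peptides of Paneth cell granules, and their genes are near-identical copies whose probes may not tell them apart. TC0800000218.mm.1 had 5.94 and 8.87, or 7.66-fold higher, before Defa30, which had 10.50 and 11.98. TC0800000229.mm.1 had 8.14 and 10.85, or 6.54-fold higher, before Defa27, with 7.38 and 9.67. TC0800001842.mm.1 had 9.10 and 11.32, and its interval held Defa41, with 7.68 and 10.86, Defa27 and Defa40. TC0800001837.mm.1 had 9.14 and 11.24, with Defa35 and Defa25 in its interval. Paneth cell markers, at a median of 2.51, were higher on the same array.

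The densest group of unnamed bright clusters on chromosome 8 overlapped this region. Among 50 consecutive clusters of the second run, 8 were unnamed and bright, with a median difference of 1.39, and 5 were at least 2-fold higher and 0 lower. Beside those above, TC0800001840.mm.1 had 9.54 and 11.24, TC0800001851.mm.1 had 9.25 and 11.10, and TC0800001825.mm.1 had 6.89 and 7.98. The last was under 2-fold after centring, at 0.91, and with TC0800001811.mm.1 and TC0800001826.mm.1 it lay in intervals that hold no defensin gene. TC0800001846.mm.1, in the same stretch, had 8.64 and 8.71. Not all bright clusters among the defensin genes therefore differed between the arrays.

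The highest cluster above both limits was TC0700003999.mm.1 on chromosome 7, with 7.28 and 10.37, a difference of 3.08 or 8.47-fold. It lay after 9130208D14Rik, a gene with 4.37 and 8.49, and between TC0700003994.mm.1 and TC0700004000.mm.1, which hold equal values and were each at least 5.23-fold higher. On chromosome 1, TC0100001594.mm.1 had 6.47 and 8.91, or 5.39-fold higher, and its interval held Itln1, which encodes a carbohydrate-binding lectin of Paneth and goblet cells and had 7.92 and 10.60. TC0X00000854.mm.1 had 7.34 and 9.36, with Gm8880 at 9.63 and 10.11. TC1700000558.mm.1 had 5.12 and 7.12, and TC0400001704.mm.1, between Wnt4 and Rpl31-ps10, had 6.12 and 8.08. Outside the highest 10, TC1600001513.mm.1 led chromosome 16 with 6.56 and 8.50. Its interval held the transferrin receptor gene Tfrc, with 5.69 and 7.06, and the membrane mucin gene Muc4, with 3.87 and 5.88.

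**Figure D5:**
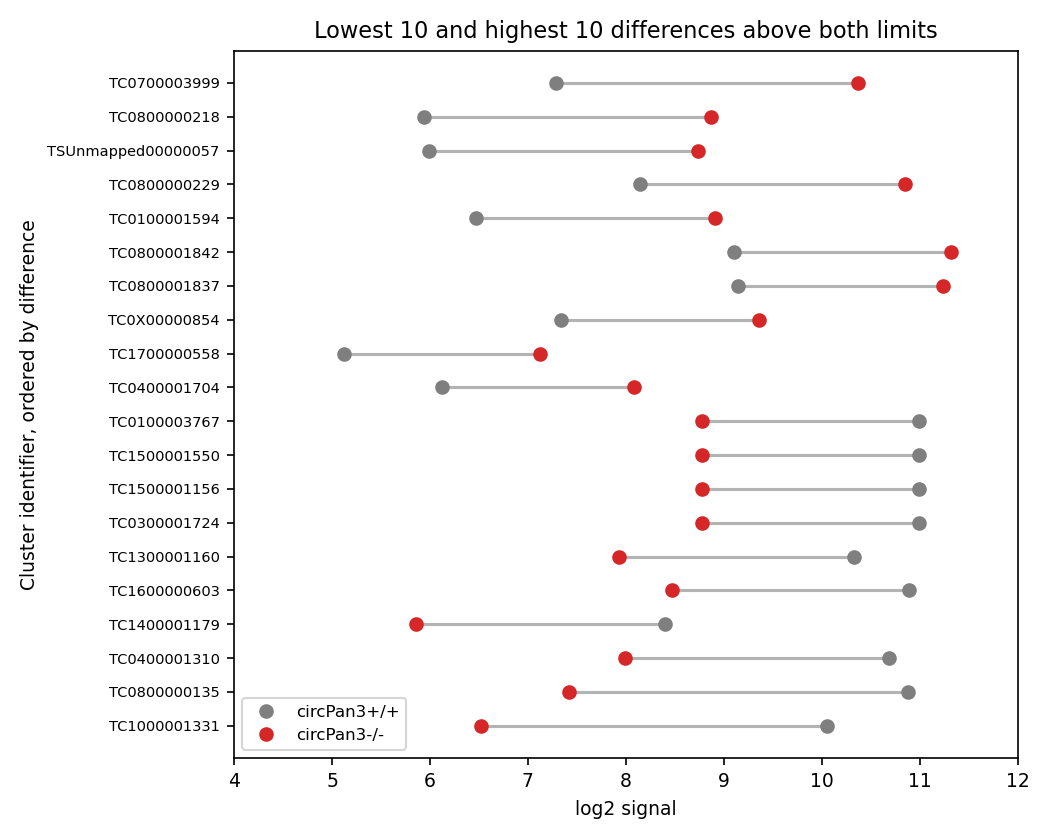
Log2 signal (x axis) on the circPan3+/+ array (grey) and the circPan3-/- array (red) of the 10 lowest and the 10 highest differences among unnamed clusters above both limits, 1 row per identifier. The 4 rows at 10.99 and 8.78 hold 1 repeated pair of values. By serial order, TC1000001331 at the bottom lies in an interval that holds Lgr5, and 4 of the upper rows lie in intervals that hold defensin genes.

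Counts over all unnamed clusters above both limits set each beside the bright genes of its interval. Of 71 higher clusters with a bright named gene in the interval, 20 (28.2%) had a gene at least 2-fold higher, against 175 of 890 (19.7%) of those under 2-fold apart and 8 of 57 (14.04%) of the lower ones. Of the 57 lower clusters, 12 (21.1%) had a gene at least 2-fold lower, against 98 of 890 (11.01%) and 7 of 71 (9.86%). The shares with a gene in the same direction were thus higher, with no test, since clusters of 1 region share their surroundings. The genes, unlike the clusters, did not have to pass both limits. Genes that passed on 1 array alone, such as Acod1 (5.19 and 2.98) and Muc4 (3.87 and 5.88), are drawn to a direction by the limits. The shares rest in part on this. Most clusters past 2-fold had no such gene. The median number of bright genes per interval was 1 in each group. A bright gene was present for 71 of 87 higher and 57 of 104 lower clusters, beside 890 of 1457 clusters under 2-fold apart.

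In the intervals of the next clusters, a bright gene went the other way or none was past 2-fold. TC1200002099.mm.1 had 7.95 and 5.33, at least 5.26-fold lower, in an interval with Fos, an immediate early transcription factor gene, which had 6.38 and 8.71. TC0600001652.mm.1 had 7.80 and 6.22, with Plekha5 in its interval at 4.79 and 6.16. The largest bound of a lower cluster was that of TC0300000304.mm.1, with 8.34 and 5.21, at least 6.90-fold, and its interval held no bright gene past 2-fold. On chromosome 13, TC1300002589.mm.1 had 4.88 and 7.64, at least 5.99-fold higher, next to Erbin, with 6.38 and 7.36.

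Runs of neighbouring clusters that were all at least 2-fold apart in 1 direction were rare. Outside the mitochondrial code there was 1, on chromosome 11 between Fbxw11 and Gm12115, where TC1100000348.mm.1 had 7.20 and 8.21, TC1100000349.mm.1 had 7.01 and 8.12, and TC1100000350.mm.1 had 6.22 and 7.63. After loess the differences were 0.67, 0.77 and 1.05. The interval held Npm1, the nucleolar protein gene nucleophosmin, on the other run of serial numbers, with 8.09 and 8.53. On that run it also held the pseudogene Rpsa-ps4, with 7.20 and 8.18. The flanking Fbxw11 had 5.35 and 5.66, and Gm12115 had 5.51 and 5.49. The densest group on the autosomes, X or Y was on chromosome 10 between Il22 and Ifng, genes of an interleukin and of interferon gamma. There, 16 of 50 consecutive clusters were unnamed and bright, between 5.22 and 6.54 on the circPan3+/+ array. They held 10 distinct pairs of values, and 0 of the 16 were at least 2-fold apart.

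Further chromosomes had a highest or lowest cluster with a bright gene past 2-fold in its interval. TC1300001391.mm.1, the highest of chromosome 13 above both limits, had 5.44 and 7.01. Its interval held Klf6, a zinc finger transcription factor gene, with 7.76 and 9.50, and Pfkp, a phosphofructokinase gene of glycolysis, with 4.84 and 6.32. TC0900000119.mm.1 had 7.84 and 9.58 in an interval with the small nucleolar RNA Gm24339, which had 7.13 and 8.62. TC1500000662.mm.1 had 5.56 and 7.37 near the long noncoding RNA Gm10865, with 5.53 and 7.58. In these 3 cases cluster and gene were higher together.

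Other chromosome extremes had no such gene. TC1200002494.mm.1, the lowest of chromosome 12 above both limits, had 8.27 and 6.38. It lay between Ighv2-1 and Ighv5-2, variable segments of the immunoglobulin heavy chain. The B and plasma cell markers had a median difference of -0.05, which is the value of Cd79a, under both limits. Cd79b had 5.67 and 4.82, while Jchain had 8.02 and 8.57. TC1700000690.mm.1 had 7.45 and 5.90 between H2-Q10 and Pou5f1. TC0X00001967.mm.1, the lowest of X, had 9.50 and 7.38, and TC0700001075.mm.1, the lowest of chromosome 7, had 9.10 and 6.91. On chromosome 6, TC0600003118.mm.1 was the highest, with a difference of 1.74, before Tpi1, a glycolytic enzyme gene, with 7.20 and 7.53.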

How the data were processed

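The deposited table holds 1 log2 value per transcript cluster and array. The authors made these log2 values with RMA in Affymetrix Power Tools, per the submitters' processing notes, whose versions and build were not given in the labels. The log2 base was taken from the range of the values, -0.18 to 13.07, because the table states no unit. Scale and direction are single-channel levels, not centred; scan conditions are not given, and 30.8% of the unnamed bright clusters held a circPan3+/+ value that another cluster also held, against 17.7% for circPan3-/-.

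Symbols came from the platform annotation, in which 33206 clusters have none, 30604 have 1 and the others several. Clusters were matched to RefSeq (GRCm38.p6) through Entrez identifiers, symbols or synonyms: 30599 of 30604 clusters with 1 symbol matched, and 30305 of these lay on the chromosome of their identifier. A gene with several clusters was represented by the brightest. Chromosomes with at least 20 bright unnamed clusters were compared by their medians. The named clusters were the 10 brightest, the 10 highest and 10 lowest differences above both limits, the 3 largest bounds in each direction, the highest and lowest of each chromosome, and runs of at least 3, of which a selection is printed. The mitochondrial, Y-coded and unmapped clusters, the pairs shared with named clusters, the stretch of chromosome 8 and the densest stretches were chosen after their values were seen. Members and lists were chosen with earlier results of these data known. Analyses used Python 3.11.15, pandas 2.3.3 and statsmodels 0.14.6 (loess span 0.3). The scaling functions were tested on simulated data: of 200 clusters changed 4-fold among 65956, 100% were found under each scaling. The simulation added small noise and a constant shift to the circPan3+/+ values and changed only clusters at levels 7 to 10. It checks that the functions run correctly and does not measure how well changes are found on these 2 arrays. The number of arrays limits the precision. Alternatives were other scalings, limits, folds and ways of counting repeated values.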

Additional observations from a re-analysis of the deposited data

How the results depend on the processing

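No paired analysis was possible because the labels give no replicate numbers and each genotype has 1 array, and for the same reason leaving out a replicate was not run. A median was taken as moved when it changed by over 0.1 (log2).

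Beside 201 clusters at least 2-fold higher as deposited, there were 114 after loess, 124 after quantile normalization, 436 with the limit at the 90th and 26 at the 99th percentile, 89 above both limits, 126 by the mean of both arrays, and 445 at 1.5-fold. Beside 201 lower clusters there were 362 after loess, 304 after quantile normalization, 73 at the 99th percentile, 112 above both limits, 385 at 1.5-fold, and 132 as bounds. The median difference of 0.17 was -0.012 after centring, -0.16 after loess and -0.065 after quantile normalization, so its sign depends on the scaling. The range of chromosome medians, 0.27, was 0.17 at the 99th percentile or above both limits, and 0.55 among clusters whose values no other row held. The 2266 clusters became 3518 at the 90th and 622 at the 99th percentile. The highest share by chromosome, 9.75%, became 2.86% (chromosome 7) and 7.13% (chromosome 4). Counting each distinct pair of values once, chosen after seeing the data, left 199 higher and 195 lower.

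Of the 68 clusters picked by the rule or afterwards that were at least 2-fold apart, 5, 9 and 6 fell under 2-fold after centring, loess and quantile normalization, respectively. All kept their direction, but these scalings moved each of them by less than 2-fold. A reversal was thus out of reach, and the kept direction is no support. Values near the negative control limits cannot be told from background, and the cause of the shift between the arrays was not tested.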
